A study of Mus musculus with 2 samples.

Results

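The genes described here encode subunits of the oxidative phosphorylation machinery of mitochondria, taken from a comparison of mouse hippocampal neurons cultured with and without tetrodotoxin (TTX), a toxin that blocks voltage-gated sodium channels and so silences action potentials. They were chosen by name from the array's own annotation. The names starting with Ndufa, Ndufb, Ndufc, Ndufs or Ndufv and a digit gave 37 genes of complex I. Sdha, Sdhb, Sdhc and Sdhd gave the 4 genes of complex II, and the Uqcr names with Cyc1 gave 9 genes of complex III. Names starting with Cox4 to Cox8 gave 19 genes for complex IV, names starting with Atp5 gave 17 genes for complex V, and Cycs gave the electron carrier cytochrome c. These 87 genes had 132 probes, of 34797 gene names and 55679 probes on the array. The pattern also took in 3 names that are not subunits, Cox4nb, Atp5s and Atp5sl (Emc8, Dmac2l and Dmac2 in current nomenclature), and it passed over subunits with other kinds of name, such as Ndufab1 and Usmg5.

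The study held 1 control array and 1 TTX array, both from ICR mouse hippocampal cells taken at embryonic day 16.5 and grown to 12 days in vitro. Both cultures were kept in medium with 5.5% serum and received 5 µM Ara-C, which kills dividing cells; only the TTX culture received the toxin, for 2 days. The labels give its dose as 2 mM in one place and 2 µM in another. They do not say how many dishes or litters stood behind each RNA, and the treatment text of both samples is the same, so the groups rest on the sample titles. With 1 array per group no difference between the conditions could be tested: every difference below compares these libraries, as log2 of the TTX signal minus log2 of the control signal after quantile normalization, and no p-value or SD over cultures exists. The only error measured was within the arrays. Probes printed on several spots gave differences with a spot-to-spot SD of 0.15 on the log2 scale over all 261 such probes and 0.06 among the brightest 20% of signals, and the scanner software's own error of the difference had a median of 0.20 for the genes described here.

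The mitochondrial respiratory chain passes electrons from NADH and succinate through complexes I and II to ubiquinone, on through complex III and the small mobile protein cytochrome c, and finally through complex IV to oxygen. The protons pumped on the way drive the ATP synthase, complex V. In neurons much of this ATP pays for the ion pumping that follows synaptic and action potentials. Complexes I, III, IV and V hold subunits encoded in the nucleus and subunits encoded in the mitochondrial genome, whereas complex II is wholly nuclear-encoded.

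The arrays measured the hybridization of Cy3-labelled RNA to 62976 spots, of which 54.2% stood well above background in the control and 52.2% in the TTX sample, with no saturated spot. After spots were combined, 27398 probes and 19564 gene names passed the background criterion in both samples and are called measured. The neuron markers were measured for 12 of 12 genes, with 8 of them lower on the TTX array and a median difference of -0.25. Their summed signal was 246110 in control and 226280 in TTX. The lowest were Nefm (-1.20) and Nefh (-0.98), while 4 were higher, namely Tubb3 (0.47), Map2 (0.35), Stmn2 (0.29) and Snap25 (0.07). Markers of astrocytes were measured for 9 of 10 genes, 7 of them higher on the TTX array, with a median of 0.24 and summed signals of 52155 and 62481. Most of these sums came from Aldoc (38706 and 44061), and the lowest astrocyte marker was Slc1a2 (-1.05). Of the microglial markers 8 of 10 were measured and 6 were higher (summed 1253.4 and 1278.6), with the defining markers Cx3cr1 and P2ry12 not well above background, and 5 of 6 fibroblast markers were measured (summed 869.16 and 1495.4). The measured fibroblast markers were all higher, by 0.11 to 0.33 apart from Fbln1, which had 108.9 and 566.6 (2.38). Of 8 markers of the oligodendrocyte lineage 5 were measured, 4 of them higher (summed 1557.8 and 1781.5), with Mag, Olig2 and Pdgfra not well above background. These marker lists did not share a direction. They differed between the same arrays as every gene group below, and their part in the results was not tested. In total RNA from a mixed culture, fewer cells of a type and less RNA per cell cannot be told apart.

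Before the values, promoters are shown for a few members, because nuclear respiratory chain genes lie on many chromosomes, here 19, and share control elements rather than position. RefSeq promoter windows (mouse GRCm38.p6, 250 bases before the transcription start) were found for 68 of the 84 subunit names, not including Cox6a2, as 73 windows. They were searched on both strands for 4 short motifs chosen with the expression values known. The letters GCATGCGC, bound by nuclear respiratory factor 1 (NRF1), occurred in 9 of 73 windows (12.3%), against 2.26% of all 32851 promoter windows. CCGGAAG, read by ETS-family factors such as GABP (nuclear respiratory factor 2), occurred in 12 (16.4% against 6.91%). The cyclic AMP response element TGACGTCA, the palindrome bound by CREB, occurred in 5 (6.85% against 1.55%), and the estrogen-related receptor element TCAAGGTCA in 1 (1.37% against 0.387%). The NRF1 letters can overlap themselves, since GCGCATGCGC holds them on both strands. A match is a description of these letters and not evidence of binding.

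Cytochrome c and Cox6a1 are printed because Cycs, the carrier between complexes III and IV, was lower on the TTX array, while Cox6a1, the widely expressed partner of the muscle-type isoform Cox6a2, was nearly level. For Cox6a2 itself no window was available to search or print. Each run reads 5′ to 3′ on the gene's strand and ends at the base before the start, with motif letters in capitals. In Cycs (chr6:50566570-50566819, minus strand) the capitals mark the cyclic AMP response element and then the NRF1 letters. In Cox6a1 (chr5:115348959-115349208, minus strand) they mark overlapping NRF1 letters and then the ETS letters on the opposite strand.
Cycs: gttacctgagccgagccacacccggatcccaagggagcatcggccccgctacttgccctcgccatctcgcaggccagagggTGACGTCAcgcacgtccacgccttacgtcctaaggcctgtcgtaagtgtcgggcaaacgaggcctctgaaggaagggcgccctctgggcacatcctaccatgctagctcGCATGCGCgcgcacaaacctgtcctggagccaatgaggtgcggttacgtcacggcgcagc
Cox6a1: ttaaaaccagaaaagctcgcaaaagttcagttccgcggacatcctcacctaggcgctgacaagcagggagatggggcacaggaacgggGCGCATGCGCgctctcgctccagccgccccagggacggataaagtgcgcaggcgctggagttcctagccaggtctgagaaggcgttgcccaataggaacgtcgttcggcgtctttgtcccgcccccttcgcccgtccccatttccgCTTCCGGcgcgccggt

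The 5 windows with the full cyclic AMP response element are compared over 40 bases each, since CREB is an activity-dependent factor in neurons and these are the members that carry its palindrome. Capitals mark the element. The windows lie at chr6:50566715-50566754 (minus strand) for Cycs, chr1:92473802-92473841 (minus) for Ndufa10, chr17:56717588-56717627 (plus) for Ndufa11, chr6:39592525-39592564 (plus) for Ndufb2 and chr13:30545322-30545361 (minus) for Uqcrfs1.
Cycs: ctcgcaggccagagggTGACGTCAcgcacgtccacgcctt
Ndufa10: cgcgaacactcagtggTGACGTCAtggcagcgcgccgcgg
Ndufa11: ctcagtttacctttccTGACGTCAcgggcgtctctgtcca
Ndufb2: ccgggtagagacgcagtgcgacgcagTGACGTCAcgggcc
Uqcrfs1: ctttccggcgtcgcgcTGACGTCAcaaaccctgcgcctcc
These 5 genes did not have like values. Cycs differed by -0.56 on the log2 scale, Ndufa11 by -0.16, Ndufb2 by -0.09, Ndufa10 by -0.08 and Uqcrfs1 by -0.03. These values are of the brightest probes, and the other measured probe of Ndufb2, at 7193.3 in control and 8428.8 in TTX, gave 0.23.

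Of the 87 genes 84 were measured, and 71 of them (84.5%) had a lower signal on the TTX array, where 47.3% of all measured genes did. The differences were small. The median was -0.17 on the log2 scale, with quartiles of -0.26 and -0.05, against a median of 0.02 over all measured genes. Most members, 76 of 84, lay among the brightest 20% of signals, and of the 3913 measured genes at that brightness 45.6% were lower on the TTX array. A gene counted as lower or higher past 25% where the brighter of its signals exceeded the dimmer by 25% or more. By that rule 10 of the 84 were lower (11.9%) and 3 were higher, beside 17.8% and 19.5% of all measured genes and 12.4% and 11.7% of those in the brightest 20%. With this normalization the share of members lower past 25% was near or below the background, and the share below 0 was above it. At 2-fold or more, 2 members were lower, Cox6a2 and Cox7a1, where 2.89% of all measured genes and 1.53% of the brightest 20% were. None was higher by 2-fold, where 2.07% and 0.639% were.

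The count past 25% followed the scaling, and so did its place against the background. With 75th percentile scaling 23 members were lower past 25% (27.4%) and 2 higher, beside 18.5% of all measured genes and 19.8% of the brightest 20% lower. Without normalization between arrays 26 were lower (31%) and 2 higher, beside 18.9% and 20.5%. When the arrays were set level on their spike-in RNAs 37 were lower (44%) and 2 higher, beside 21.4% and 23.9%. The members' share was thus above the background in these 3 settings, and near or below it with quantile normalization, normexp background correction (14.3%, beside 12.3% and 11.8%) and the deposited values (9 of 84, beside 18.2% and 12.3%). The count below 0 ranged from 70 to 77 of 84 over the 6 scalings and signals compared, and the share of the brightest 20% of genes below 0 ranged from 45.6% to 67.7%.

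**Figure D1:**
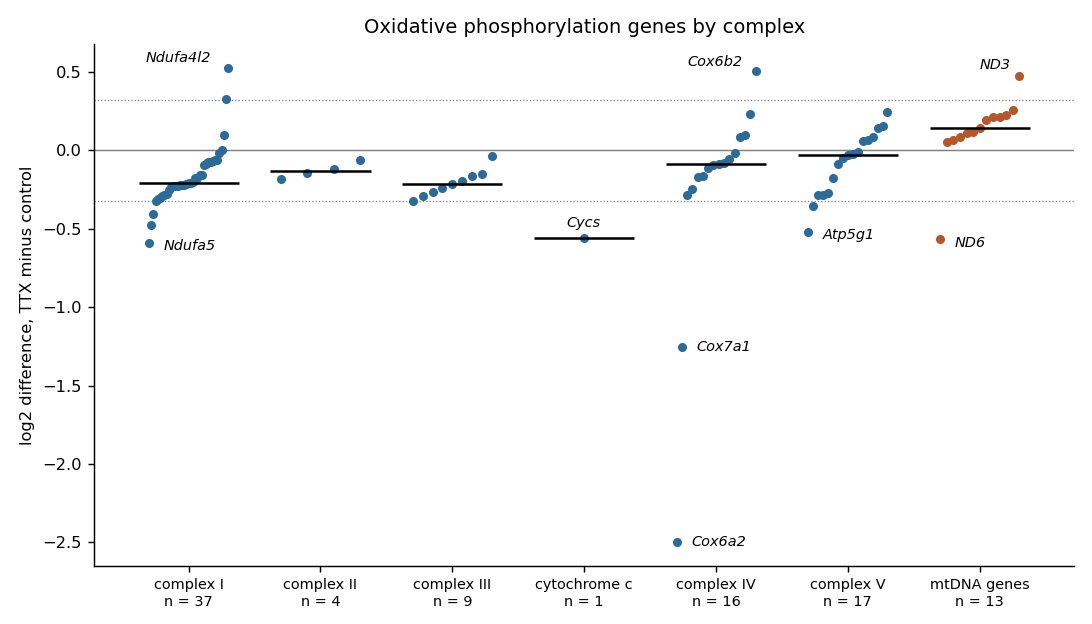
Log2 difference of TTX minus control (vertical axis) for each measured gene, one point per gene at its brightest probe, by complex, with cytochrome c and the genes of the mitochondrial genome apart; black bars are medians and dotted lines mark the 25% rule. Of the 84 nuclear genes 71 lie below 0, Cox6a2 (-2.50) and Cox7a1 (-1.254) lie far below the rest, and 12 of 13 mitochondrial genes (11 after normexp background correction) lie above 0.

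Complex I oxidizes NADH and is the largest enzyme of the chain. All 37 of its genes were measured, 34 of them lower on the TTX array, with a median difference of -0.21. The 4 lower past 25% were Ndufa5, Ndufa13, Ndufs8 and Ndufa9, and the 2 higher past 25% were Ndufa6 and Ndufa4l2. As normalized here the 4 were 10.8% of the complex, beside 17.8% of all measured genes and 12.4% of the brightest 20%. Higher past 25% were 19.5% and 11.7% of those backgrounds. Ndufa9 (-0.32) lay just inside that line, which is 0.32 on the log2 scale, and Ndufc2 (-0.31), a membrane-arm subunit, just outside it.

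Ndufa5, an accessory subunit of the matrix arm, had a signal of 35513 in control and 23617 in TTX, a difference of -0.59, at a probe on chromosome 6 (24468666 to 24468725, minus strand, mm9). Its other probe gave -0.49. Both values lay below those of every other complex I gene at its brightest probe. Ndufa13, an accessory subunit also known as GRIM-19, had 80009 and 57485 (-0.48). Ndufs8, a core subunit that carries iron-sulphur clusters, had 4914.9 and 3713.7 (-0.40), and Ndufa9, an accessory subunit near the ubiquinone site, had 7352.6 and 5881.4. These were lower by more than the spot-to-spot SD.

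Among the core subunits of complex I, most of which carry electrons, the values ran from near level to the -0.40 of Ndufs8. Ndufv1, which binds NADH and flavin, differed by -0.23 and Ndufs3 by -0.22. The iron-sulphur subunits Ndufv2 (-0.07), Ndufs7 (-0.06) and Ndufs1 (-0.02) were within 0.1 of level as normalized here, and at -0.21, -0.18 and -0.19 with spike-in scaling. Of the 30 subunits outside the core 27 were lower, with a median of -0.21, and no difference between core and accessory subunits was tested.

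The 3 complex I genes above 0 were Ndufs4 (0.10, an accessory subunit added late in assembly, with a sign that turned with the scaling), Ndufa6 and Ndufa4l2. Ndufa6 had a signal of 8623.9 in control and 10812 in TTX (0.33), which came to 0.15 with spike-in scaling. Ndufa4l2, a hypoxia-inducible relative of Ndufa4, had a low signal of 84.5 and 121.7 (0.53), which came to 0.27 after normexp background correction. Ndufa4 itself, named for complex I but now placed in complex IV, had 21728 and 17588 (-0.30). The members of complex I not named here lay between -0.29 for Ndufb5 and -0.0013 for Ndufc1, whose sign turned with the scaling.

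Complex II, succinate dehydrogenase, is also an enzyme of the TCA cycle. Its 4 genes were all lower, with a median of -0.13, and none passed 25%. Sdhb, the iron-sulphur subunit, had 25731 in control and 22623 in TTX (-0.19), and Sdhc, a membrane anchor, had 6041.7 and 5458.2 (-0.15). Sdhd, the other anchor, had 12411 and 11420 (-0.12). Sdha, the flavoprotein that oxidizes succinate, had 9375.9 and 8970.4 (-0.06). All of these differences were below the scanner software's error of 0.20 as normalized here, and all were above it with 75th percentile scaling (-0.28 to -0.21) and with spike-in scaling (-0.32 to -0.25).

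Complex III passes electrons from ubiquinol to cytochrome c. Its 9 genes were all lower, with a median of -0.21 and 1 gene lower past 25% (11.1%, beside 17.8% of all measured genes). That gene was Uqcrq, a small subunit next to the ubiquinone site, with 57049 in control and 45621 in TTX (-0.32) at its brightest probe, while the other probe gave -0.10. Cyc1, the haem-bearing cytochrome c1, had 32290 and 26332 (-0.29). Uqcrh, the hinge protein that docks cytochrome c, had 57604 and 47869 (-0.27). Of the other small subunits Uqcr10 differed by -0.24, Uqcrb by -0.19 and Uqcr11 by -0.15. The large core proteins Uqcrc1 and Uqcrc2 differed by -0.21 and -0.16. The smallest difference, -0.03 (-0.23 with spike-in scaling), was that of Uqcrfs1, the Rieske iron-sulphur protein.

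Cytochrome c carries electrons from complex III to complex IV and, when released from mitochondria, triggers apoptosis. Cycs had a signal of 24944 in control and 16912 in TTX, a difference of -0.56, at its brightest probe on chromosome 6 (50515092 to 50515151, minus strand, mm9). Its second probe had 10280 and 6791.0 (-0.60), and the dimmest had 112.5 and 58.4 (-0.95). All of its probes were lower by more than the spot-to-spot SD, and over the 6 scalings the brightest probe gave -0.69 to -0.55. Somatic cytochrome c thus stood below the median of every complex in these libraries.

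Complex IV, cytochrome c oxidase, reduces oxygen to water, and its nuclear subunits include pairs of isoforms with different tissue distribution. Of its 19 names 16 were measured, 12 of them lower on the TTX array, with a median of -0.09. The 16 take in Cox4nb (0.23), which is not a subunit. The 2 lower past 25% (12.5%, beside 17.8% of all measured genes), Cox6a2 and Cox7a1, were also past 2-fold. Without them 10 of 14 were lower with a median of -0.08. Among the widely expressed subunits Cox7c was lowest at its brightest probe (-0.28), although its other probes gave 0.03 and -0.02, followed by Cox5a (-0.17), Cox7a2l (-0.17, a factor of supercomplex formation), Cox5b (-0.12), Cox8a (-0.09) and Cox7b (-0.09). Cox4i1 had 96031 in control and 92418 in TTX (-0.06), and Cox6a1 had 210230 and 198810 (-0.08). Cox7a2 (-0.02), Cox6c (0.08) and Cox6b1 (0.10) lay near level, and each of these signs turned with the scaling.

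The isoform pairs of subunits VIa and VIIa parted. Cox6a2, the heart and skeletal muscle isoform of subunit VIa, which is also known from parvalbumin interneurons, had a signal of 3616.4 in control and 640.5 in TTX. That is a difference of -2.50, and -2.61 to -2.36 over the 6 scalings, beside -0.08 for its partner Cox6a1. The value rests on 1 probe and 1 spot (chromosome 7, 135349160 to 135349219, minus strand, mm9), with a scanner error of 0.20. Cox7a1, the muscle isoform of subunit VIIa, had 1595.1 and 668.8 (-1.254, and -1.37 to -1.22 over the scalings), beside -0.02 for Cox7a2, whose sign turned with the scaling. Its single probe lies on the plus strand of the same chromosome, with ends at 30970337 and 30970948. Both muscle-type isoforms passed the background criterion in each sample, and they were the lowest of all 84 measured members.

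The other minor isoforms did not share a direction. Cox6b2, the testis-type isoform of subunit VIb, had 491.6 in control and 697.1 in TTX (0.50), beside 0.10 for Cox6b1, whose sign turned with the scaling. Cox4i2, the isoform linked to low oxygen, had 121.2 and 102.2 (-0.25). Cox7b2 was well above background on the TTX array only (16.7 in control and 31.4 in TTX). Its TTX signal was 1.88 times its own control signal, which was above the lowest signal among probes well above background in that sample. This ratio is not a lower bound: the log2 difference of 0.91 had a scanner error of 0.46. Cox8b and Cox8c were not well above background on either array.

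**Figure D2:**
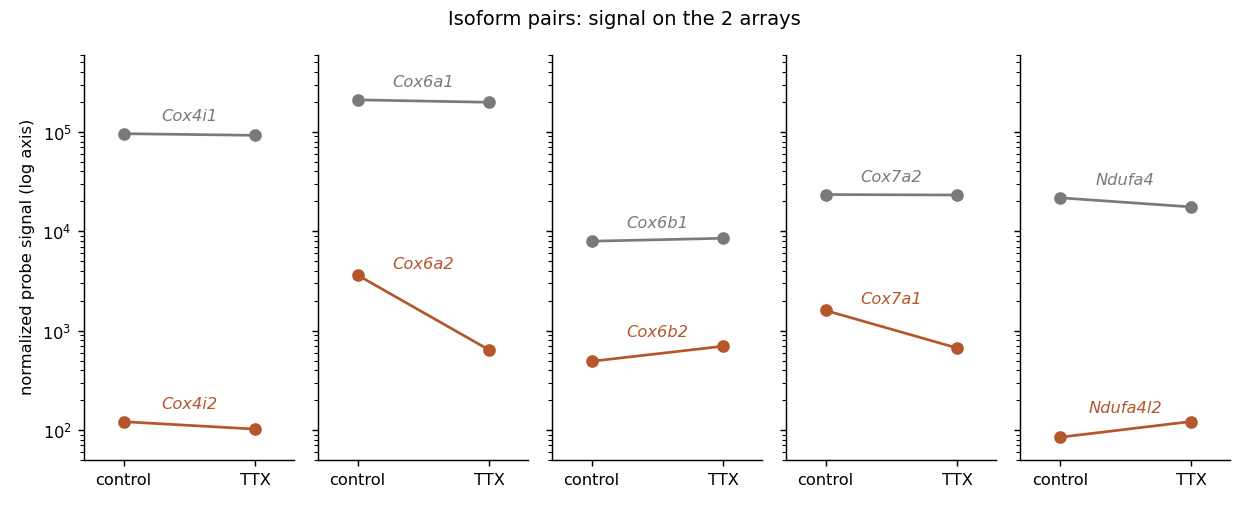
Normalized signal (vertical log axis, arbitrary units) on the control and the TTX array for isoform pairs, one line per gene at its brightest probe; levels of different probes are not compared. The lines of Cox6a2 (3616.4 to 640.5) and Cox7a1 (1595.1 to 668.8) slope down while their partners are nearly flat, and Cox6b2 and Ndufa4l2 slope up.

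Genes of other lineages were read beside the muscle-type isoforms. Of 7 muscle markers Acta1, Ckm, Myh6, Myl2, Tnni3 and Tnnt2 were not well above background, and Myh7 alone was measured, at 253.4 in control and 567.7 in TTX (1.16). Interneuron genes were added after the values were seen. Pvalb had 2925.0 in control and 2747.0 in TTX (-0.09), Lhx6, a factor of the lineage that makes parvalbumin cells, had 8999.0 and 9591.2 (0.09), and Sst differed by -0.19. Vip, of another interneuron class, had 483.7 and 245.4 (-0.98). Of the GABA-synthesis genes Gad1 differed by -0.70 and Gad2 by -0.11. These 4 interneuron genes did not share a direction or a size, and the part of these cells in the result was not tested.

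Complex V, the ATP synthase, turns the proton gradient into ATP. Of its 17 names 11 were lower on the TTX array, with a median of -0.03. The 17 take in Atp5s (0.09) and Atp5sl (-0.03), which are not subunits, and the median is the value of Atp5sl. Past 25% 2 names were lower (11.8%, beside 17.8% of all measured genes). Atp5d, the delta subunit of the central stalk, had 28363 in control and 22210 in TTX (-0.35). The other of these was Atp5g1, with 71961 and 50191 (-0.52) at its brightest probe. The catalytic F1 genes were close to level or higher. Atp5b, the catalytic beta subunit, had 73310 and 81466 (0.15). Atp5a1, its alpha partner, had a difference of 0.06 and Atp5c1, the gamma subunit, of -0.01, and the sign of Atp5a1 turned with the scaling. The small epsilon subunit Atp5e differed by -0.28.

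In the membrane part and the stalks, 7 of 10 genes were lower with a median of -0.07. Atp5h (-0.29), Atp5k (-0.27) and Atp5f1 (-0.18), a peripheral stalk subunit, were on the low side. Atp5j, coupling factor 6, had 12030 and 14214 (0.24, or 0.07 with spike-in scaling), and Atp5o, the oligomycin-sensitivity protein at the top of the stalk, differed by 0.14 with a sign that turned with the scaling. The proton-carrying c-ring is made from 3 genes that encode the same mature protein, Atp5g1, Atp5g2 and Atp5g3. Atp5g2 differed by -0.09 and Atp5g3 by -0.03, the latter with a sign that turned with the scaling, so that Atp5g1 was the lowest of the c-ring genes at its brightest probe only.

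Agreement between probes of one gene was read as a check that the arrays provide themselves. Of the 84 genes 30 had at least 2 measured probes, 74 in all. The probes had one sign in 23 of these genes and both signs in 7, and the median range within a gene was 0.13 on the log2 scale. In 2 genes the range passed 0.5. Atp5g1 had -0.52 at its brightest probe and 0.27 at the other, with the brightest at 95934315 to 95934374 and the other at 95930317 to 95930376 on the minus strand of chromosome 11 (mm9). Ndufv3, a complex I subunit with splice forms, had -0.22 at its brightest probe, with the others at 0.28 and -0.32. Uqcrb had probes from -0.19 to 0.30, and the 6 probes of Atp5l, with a sign that turned with the scaling, ran from -0.20 to 0.07. Over all 128 measured probes 83.6% were lower on the TTX array, with a median of -0.15.

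**Figure D3:**
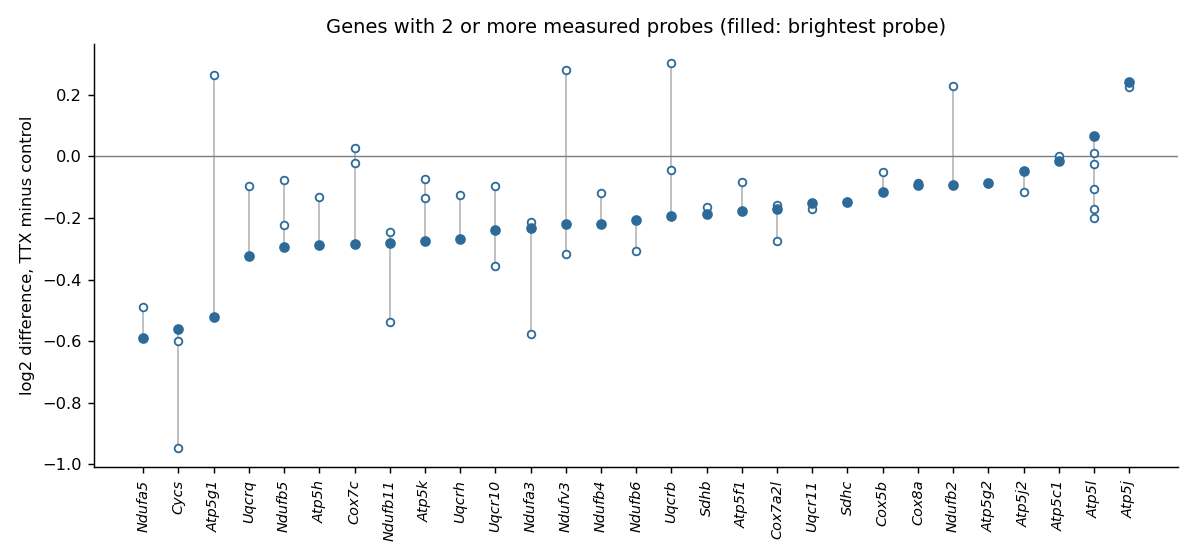
Log2 difference of TTX minus control (vertical axis) for each measured probe of genes with at least 2 measured probes, apart from a gene not reported here, one column of points per gene, filled for the brightest probe. The median range within a gene is 0.13, while the probes of Atp5g1 (-0.52 and 0.27) and Ndufv3 (-0.32 to 0.28) part.

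Some values rest on probes that other transcripts may reach. At their brightest probe 8 members shared a run of 25 or more bases with another feature on the array, namely Cox6a1, Uqcrq, Cox7c, Atp5l, Cox5b, Atp5h, Ndufs6 and Ndufs3. None of these shared runs joined one member to another. Spot position was also read: 46 of the members lay in the upper rows of the array and 38 in the lower. The median of all members was -0.12 over spots in rows 1 to 192 and -0.18 over rows 193 to 384, each scored with the spots that remained.

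The 13 protein genes of the mitochondrial genome, whose products join the same complexes, went the other way. Of these 12 were higher on the TTX array, with a median of 0.14. Among all 19564 measured genes 10298 were above 0. The differences were small, and their median was below the scanner software's error of 0.20. Past 25% 1 gene was higher, ND3, beside 19.5% of all measured genes. Also past 25% 1 was lower, ND6, beside 17.8%. The complex I genes ranged from 0.11 for ND4 to 0.47 for ND3 apart from ND6, and the complex IV genes COX1, COX2 and COX3 had 0.05, 0.21 and 0.20. ATP6 and ATP8 of complex V had 0.08 and 0.26. CYTB of complex III had 0.07, and turned to below 0 with normexp background correction. The exception, ND6, is transcribed from the opposite strand to the others and had 306.7 in control and 206.9 in TTX (-0.57). The files place the ND3 probe on chromosome 1, so its signal of 25658 and 35641 may not come from the mitochondrial genome alone.

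Over the 6 scalings 12 of these 13 genes were above 0, or 11 after normexp background correction, while 70 to 77 of the 84 nuclear members were below 0. The median of the mitochondrial genes lay 0.31 above that of the nuclear members. It lay 0.39 above with 75th percentile scaling, with spike-in scaling and without normalization. Only 7 of the 84 nuclear members were above the median of the mitochondrial genes, with 3 of them in the minor isoforms and non-subunits Ndufa4l2, Cox6b2 and Cox4nb.

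**Figure D4:**
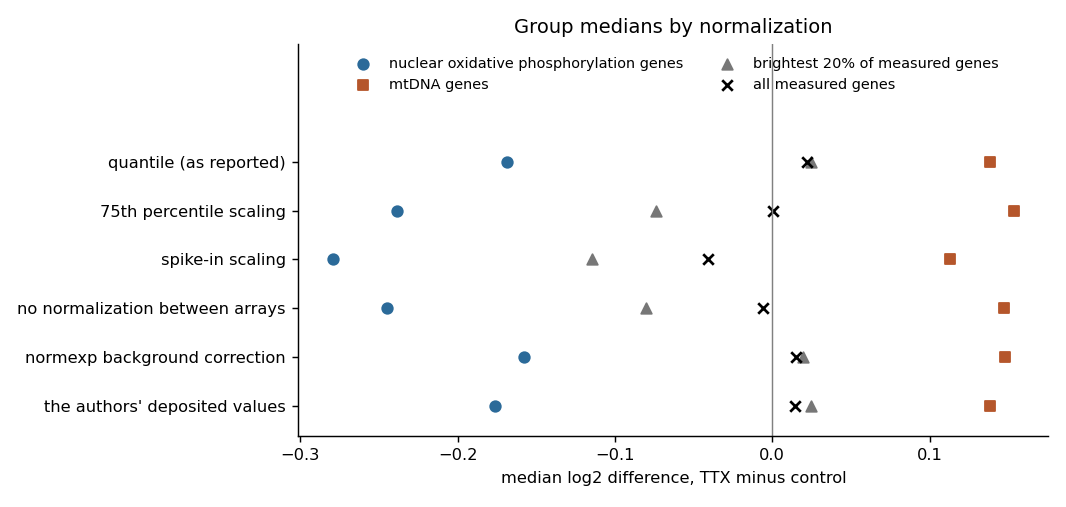
Median log2 difference of TTX minus control (horizontal axis) for the nuclear members, the genes of the mitochondrial genome, the brightest 20% of measured genes and all measured genes, under each of the 6 scalings or signals (vertical axis). The nuclear median runs from -0.28 to -0.16 and the mitochondrial median from 0.11 to 0.15, with the medians of the other genes between them in each.

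The genes that build, feed and regulate the chain gave a mixed picture. Assembly factors, which insert haem, copper and iron-sulphur clusters and join the subunits, were measured for 42 of 45 genes. Of these 31 were lower (73.8%, beside 47.3% of all measured genes), with a median of -0.18. Past 25% 10 were lower (23.8%, beside 17.8% of all measured genes) and none was higher (beside 19.5%). The lowest was Cox10, which makes haem for complex IV, at 97.1 in control and 56.6 in TTX (-0.78, or -0.38 after normexp), followed by Tmem126b, a complex I assembly factor (-0.53). The highest were Ndufaf2 (0.20), an assembly factor of complex I, and Cox19 (0.15), of complex IV.

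Among 24 measured genes of the TCA cycle and pyruvate dehydrogenase 18 were lower (75%, beside 47.3% of all measured genes). The median was -0.16. Past 25% 7 were lower (29.2%, beside 17.8% of all measured genes) and 2 were higher (beside 19.5%). The enzyme genes lower past 25% were Idh3a (-0.54), Ogdh (-0.50), Suclg1 (-0.43), Dlat (-0.39) and Fh1 (-0.38). The regulators of pyruvate dehydrogenase gave the extremes of the list. Its phosphatase Pdp2 differed by -0.70 and its kinase Pdk3 by -0.55, while the kinases Pdk1 and Pdk4 differed by 0.60 and 1.06. Pdk4 was dim, at 16.6 and 34.6, and came to 0.29 after normexp. The kinases of this enzyme therefore had both directions.

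Carriers, porins and import proteins were measured for 27 of 28 genes, with a median of -0.12. A lower signal was seen for 20 (74.1%, beside 47.3% of all measured genes). Past 25% 4 were lower (14.8%, beside 17.8% of all measured genes) and 3 were higher (beside 19.5%). The lowest were Slc25a5, an ADP/ATP carrier (-0.58), and the uncoupling protein family member Ucp2 (-0.48, or -0.14 after normexp), and the highest were Slc25a27 (0.44) and Micu2 (0.41), a regulator of the calcium uniporter. Of 76 genes with names of mitochondrial ribosomal proteins 60 were lower (78.9%, beside 47.3% of all measured genes), with a median of -0.07. Past 25% 3 were lower (3.95%, beside 17.8%) and 1 was higher (beside 19.5%). This list was taken by name alone, with Mrpl48 (-0.94) and Mrps36 (-0.40) lowest and Mrpl39 (0.45) and Mrpl14 (0.22) highest.

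The regulators of mitochondrial transcription and biogenesis did not share a direction. Of 24 measured genes 12 were lower (50%, beside 47.3% of all measured genes) and the median was -0.01. Ppargc1b, a coactivator of respiratory genes, had 99.8 in control and 50.2 in TTX (-0.99, or -0.57 after normexp), and Esrrg, a nuclear receptor it works with, differed by -0.76 (-0.51 after normexp). Gabpa, the DNA-binding subunit of nuclear respiratory factor 2, was highest at 0.57 (0.37 after normexp), followed by Mterf2 at 0.43. Other well-known regulators lay nearer to level as normalized here. Esrra was at -0.28, Nrf1 at -0.09, Ppargc1a at -0.02 and Tfam, which packages mitochondrial DNA, at 0.02. With spike-in scaling they were, in the same order, at -0.43, -0.14, -0.18 and -0.11.

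**Figure D5:**
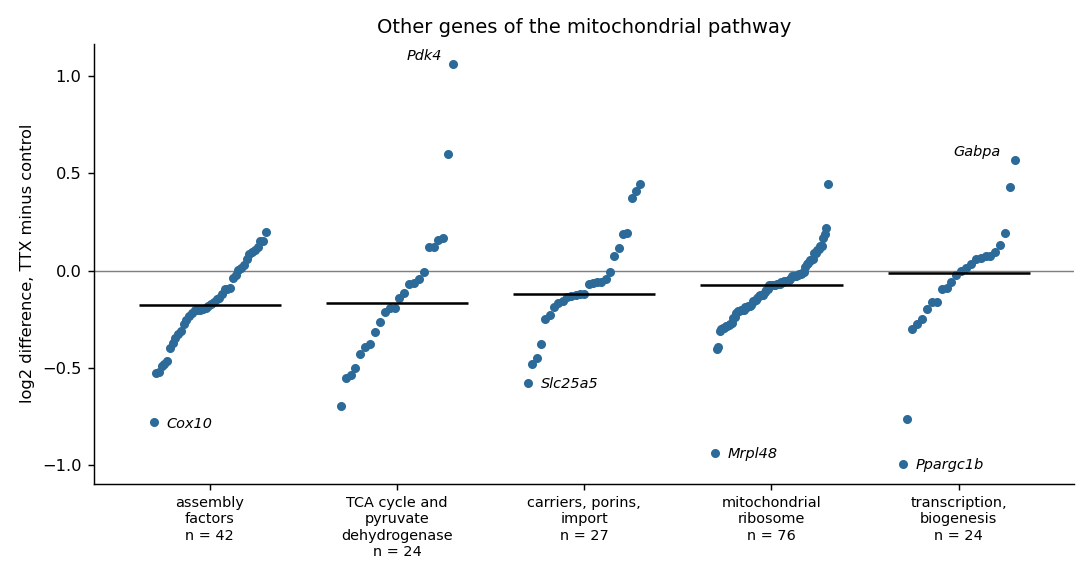
Log2 difference of TTX minus control (vertical axis) for each measured gene of the lists around the respiratory chain, one point per gene at its brightest probe, with black bars for medians. Assembly factors (-0.18) and TCA cycle genes (-0.16) have the lowest medians, carriers (-0.12) and mitochondrial ribosomal proteins (-0.07) follow, and the regulators center on -0.01 with Ppargc1b lowest and Gabpa highest.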

How the data were processed

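Each RNA was hybridized to a one-colour Agilent 8x60K mouse array, both on one slide, so that position on the slide and condition cannot be told apart. The files hold intensity values that the authors deposited as scanner output (Agilent Feature Extraction 10.7.1.1 per the file headers, 9.5.1.1 per the submitters' processing notes), already background-subtracted. The authors also deposited a table of linear intensity, quantile normalized per the labels, used as an alternative. Here the processed signals of non-control spots not flagged as outliers were quantile normalized between arrays and put on the log2 scale, and spots of a probe were averaged (Python 3.11.15, pandas 2.3.3, numpy 2.4.6; normexp with offset 50 in limma 3.58.1). Probes counted as measured when the well-above-background call held for a share of 0.5 or more of their spots in each sample, with the brightest such probe standing for the gene. For a gene well above background in 1 sample only, the ratio compares the bright signal with the dim signal itself, or with the lowest signal among probes well above background where that is higher.

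Named were the 4 lowest and 2 highest genes of each complex, all of complex II, Cycs, the isoform families, the redox and catalytic subunits, unmeasured members and genes whose probes differed by over 0.5, and the 2 lowest and 2 highest of each other list with a few set regulators. Others were named after their values were seen. A gene that the rule names is not reported here. Members and lists were chosen with earlier results of these data known. Coordinates of probes, as the files give them, refer to mm9. All 87 names matched the RefSeq gene table. The calculations were checked on simulated data. With 1 array a group, no test was run. The alternatives were 5 other scalings or signals, other filters, probe rules, size rules and subsets of spots.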

Additional observations from a re-analysis of the deposited data

How the results depend on the processing

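Among values that answer a comparison 171 of the alternatives gave a value near the reported one, 49 gave a shifted value and 0 were labelled as turned. The median of all measured genes, near 0, nevertheless changed sign. It was 0.02 as reported, -0.041 with spike-in scaling and -0.0060 without normalization between arrays. Among named genes 740 did not shift beyond the spot SD, 48 did and 0 turned a called direction. With 75th percentile scaling the medians were -0.24 for all members, -0.28, -0.25, -0.30 and -0.13 for complexes I, II, III and V, -0.65 for Cycs, -0.25 for TCA cycle genes, -0.19 for carriers, -0.21 for mitochondrial ribosomal proteins and -0.082 for regulators. Without normalization between arrays they were, in the same order, -0.24, -0.29, -0.25, -0.31, -0.14, -0.65, -0.26, -0.20, -0.21 and -0.088. With spike-in scaling they were -0.28, -0.32, -0.29, -0.34, -0.17, -0.69, -0.29, -0.23, -0.25 and -0.12, with -0.24 for assembly factors and -0.041 for all measured genes. The members lower past 25% numbered 23, 26 and 37 under these scalings. The mean over probes gave Cycs -0.70. Over spots in rows 1 to 192 TCA cycle genes had -0.080 and regulators -0.16, and over rows 193 to 384 complex III had -0.10; both subsets, and leaving out the 3 names that are not subunits, were chosen after seeing the data. A 1.1-fold rule called 48 members lower and 7 higher (6269 and 7124 of all genes), and a 1.5-fold rule 3 and 0 (1525 and 1517). Without the filter on dim probes 7352 genes were lower and 7103 higher past 25%. Apart from the size rules, the filter and the subsets, whose construction sets the counts, the cause was not tested. No paired analysis was possible because each group has 1 array. Signals near background limit Ndufa4l2, Cox4i2, Cox7b2, Cox10, Ppargc1b, Esrrg, Ucp2 and Pdk4.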
